A study of Mus musculus with 8 samples.

Results

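The miR-17 seed family and miR-19 were followed in exosomal small RNA of mouse plasma and cerebrospinal fluid (CSF). The members were picked by name from the tables of both fluids, and all 7 of them were found among the 1960 mature miRNAs listed in both: miR-17-5p, miR-20a-5p, miR-93-5p, miR-106b-5p, miR-18a-5p, miR-19a-3p and miR-19b-3p. The study isolated exosomes, vesicles released by cells, from adult wild-type mice and set a treated state against a baseline state in both sexes. Treated mice received DOCA-salt, the mineralocorticoid deoxycorticosterone acetate with salt, which is used to raise blood pressure, and baseline mice were left untreated. Each fluid gave a baseline female, a DOCA-salt female, a baseline male and a DOCA-salt male library. Thus 8 libraries were measured, 4 per fluid, and all were treated as 1 batch. The labels do not tie libraries to individual mice, nor say whether both fluids of a condition came from the same mouse, so the p-values below measure only the spread between these libraries, which may be partly technical.

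In mammals the miR-17-92 cluster is cut from a single primary transcript into the hairpins of miR-17, miR-18a, miR-19a, miR-20a, miR-19b and miR-92a, and the miR-106b-25 cluster, which holds miR-106b, miR-93 and miR-25, sits in the gene of a replication licensing factor. Both clusters are known from proliferating cells, including blood cell precursors and lymphocytes, where their miRNAs repress inhibitors of the cell cycle and the pro-apoptotic factor Bim. A miRNA finds its targets mainly through its seed, bases 2 to 8 from the 5′ end, so members with 1 seed can repress largely overlapping sets of messages, and each hairpin yields a 5′ (5p) and a 3′ (3p) strand of which usually 1 is kept.

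The 7 mature sequences are shown because their seeds define 3 groups and because a few of them differ from another miRNA by very few bases. They are given 5′ to 3′ from RefSeq (GRCm38.p6), with the seed in capitals. The first 4 share the seed AAAGUGC:
miR-17-5p: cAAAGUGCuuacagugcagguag
miR-20a-5p: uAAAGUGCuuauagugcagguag
miR-93-5p: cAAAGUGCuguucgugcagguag
miR-106b-5p: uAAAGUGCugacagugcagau
The seed of miR-18a-5p differs from that of miR-17-5p by A4G, with positions counted from 1 at the 5′ end:
miR-18a-5p: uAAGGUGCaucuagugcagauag
The pair of miR-19 sequences has the seed GUGCAAA:
miR-19a-3p: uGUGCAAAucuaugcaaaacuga
miR-19b-3p: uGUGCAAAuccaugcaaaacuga

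Counting positions from 1 at the 5′ end, miR-19a-3p and miR-19b-3p differed only by U11C. miR-17-5p differed from miR-106a-5p, its copy in a paralogous cluster on the X chromosome, only by U10A, from miR-20a-5p by C1U and C12U, and from miR-93-5p at 4 positions. The X chromosome also holds a second gene for the same mature miR-19b-3p. Counts of such near-identical sequences depend on how the authors assigned reads, so the splits of miR-19a from miR-19b, of miR-17 from miR-106a, and of miR-18a and miR-20a from miR-18b and miR-20b, which differ from them at 2 positions each, are uncertain.

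On mm10, the 5 members of the miR-17-92 cluster lie within exons of the long noncoding RNA gene Mir17hg on the plus strand of chromosome 14: miR-17-5p at chr14:115043684-115043706, miR-18a-5p at chr14:115043867-115043889, miR-19a-3p at chr14:115044048-115044070, miR-20a-5p at chr14:115044183-115044205 and miR-19b-3p at chr14:115044358-115044380. The second copy of miR-19b-3p is at chrX:52741991-52742013 on the minus strand. miR-106b-5p at chr5:138165787-138165807 is intronic, and miR-93-5p at chr5:138165574-138165596 is exonic only in a retained-intron transcript, in both cases of the protein-coding gene Mcm7 on the minus strand.

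Libraries held 158572 to 337240 unique molecular identifiers (UMIs, tags that mark single captured molecules) in plasma and 237878 to 1082504 in CSF. The files gave 3.68 to 6.19 reads per UMI in plasma and 1.19 to 1.69 in CSF. The 7 striated muscle miRNAs made up 36.3% to 56.6% of UMIs in CSF and 0.290% to 1.50% in plasma, so shares of UMIs taken by the other miRNAs were held down in CSF. Of these, miR-1a-3p, miR-206-3p, miR-133a-3p and miR-133b-3p had larger shares in every CSF library than in any plasma library. miR-208a-3p, miR-208b-3p and miR-499-5p had smaller ones in every CSF library. With trimmed mean of M-values (TMM) scaling, which sets the bulk of miRNAs to an equal level, the scaling factors were 1.44 to 2.08 in plasma and 0.377 to 0.856 in CSF.

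The 7 members together made up 0.643% ± 0.128 of plasma UMIs and 0.126% ± 0.0294 of CSF UMIs (SD, n = 4 libraries each). All 7 were detected in plasma, and in CSF only miR-18a-5p had a library without a UMI. Levels are given as counts per 1000000 UMIs of the library (CPM), which needs no correction for length as each UMI is 1 mature molecule of 21 to 23 bases. Capture and ligation depend on sequence, so the order of levels between miRNAs describes these libraries rather than copies per exosome.

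miR-93-5p, the abundant member of the Mcm7 cluster, stood at 7149.9, 5121, 6168 and 4309 CPM in plasma (baseline female, DOCA-salt female, baseline male and DOCA-salt male, the order used throughout). In CSF it stood at 1265, 1034, 774 and 755 CPM. Every plasma library was above every CSF library, and miR-93-5p made up 84.8% to 90.3% of the members' UMIs in plasma and 74.3% to 77.9% in CSF. It ranked between 24 and 34 of 1977 miRNAs in plasma and between 64 and 86 of 1961 in CSF.

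miR-20a-5p, a seed partner of miR-93-5p from the miR-17-92 cluster, reached 197, 122, 177 and 135 CPM in plasma and 198, 125, 145 and 146 CPM in CSF, so its CPM ranges overlapped almost fully. miR-17-5p, the member that names the family, reached 96.5, 56.3, 101 and 65.6 CPM in plasma and 54.6, 52.7, 49.1 and 49.9 CPM in CSF. On this scale the CSF values of miR-17-5p lay within 5.52 CPM of each other, and each was below the lowest plasma value. With the muscle miRNAs taken out of the totals, miR-17-5p stood at 97.1, 56.7, 101 and 66.6 CPM in plasma and 89.1, 82.7, 113 and 98.0 CPM in CSF, and its ranges overlapped.

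miR-18a-5p, whose seed differs from that of miR-17-5p, was counted at 38, 56, 15 and 73 UMIs in plasma, or 136, 166, 94.6 and 239.6 CPM. In CSF it was counted at 4, 0, 4 and 8 UMIs, or 16.8, 0, 5.31 and 7.39 CPM. The 0 in the CSF library of the DOCA-salt female allows a level of up to 9.88 CPM, counting 3 UMIs as the floor, and the two-sided 95% exact interval, the one plotted, ends at 12.1 CPM. The CSF libraries together held 16 UMIs.

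miR-19b-3p, of a seed known from mouse lymphoma models as the main oncogenic part of the cluster, stood at 254, 181, 409.9 and 246 CPM in plasma and 79.9, 59.3, 42.5 and 40.6 CPM in CSF. miR-19a-3p, of the same seed, stood at 46.5, 32.6, 82.0 and 39.4 CPM in plasma and 12.6, 26.3, 15.9 and 11.1 CPM in CSF. Both were higher in every plasma library than in any CSF library, and miR-19b-3p exceeded miR-19a-3p in all 8 libraries. miR-106b-5p was the rarest of the AAAGUGC group, at 10, 4, 3 and 15 UMIs in plasma and 4, 9, 8 and 4 UMIs in CSF, with overlapping CPM ranges.

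By mean CPM the order in plasma was miR-93-5p (5687 ± 1237), miR-19b-3p (273 ± 97.2), miR-18a-5p (159 ± 61.2), miR-20a-5p (157 ± 35.1), miR-17-5p (79.8 ± 22.2), miR-19a-3p (50.1 ± 22.0) and miR-106b-5p (28.9 ± 16.8; SD, n = 4). In CSF it was miR-93-5p (957 ± 242), miR-20a-5p (153 ± 31.0), miR-19b-3p (55.6 ± 18.2), miR-17-5p (51.6 ± 2.55), miR-19a-3p (16.5 ± 6.87), miR-106b-5p (15.2 ± 11.0) and miR-18a-5p (7.38 ± 7.02). Neighbours in these orders had separate ranges below miR-93-5p and below miR-20a-5p in both fluids and below miR-17-5p in CSF, whereas all other neighbours overlapped and could not be ordered beyond their spread. By the mean, miR-18a-5p was the third highest in plasma and the lowest in CSF.

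**Figure D1:**
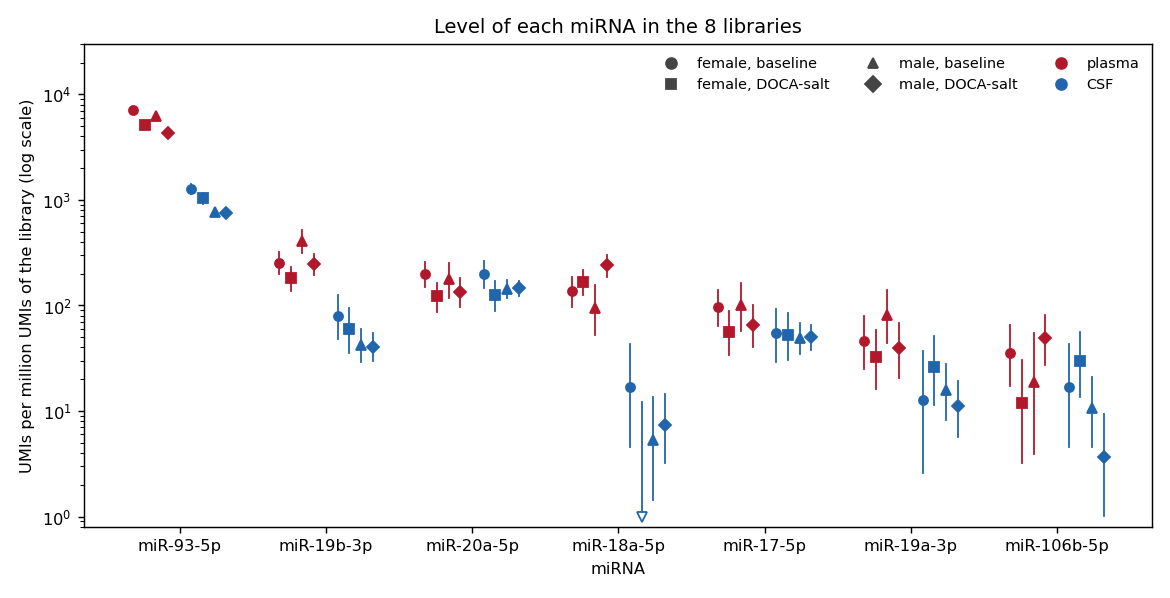
Level of each of the 7 members in the 8 libraries, in CPM on a log axis. Plasma is in red and CSF in blue, with marker shape for sex and treatment. Lines are 95% exact binomial intervals, which cover counting error only. miR-93-5p stands at 4309 to 7149.9 CPM in plasma and 755 to 1265 in CSF, miR-20a-5p overlaps between the fluids, and the open triangle marks the CSF library with 0 UMIs of miR-18a-5p.

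The first comparison asked how the exosomal content of CSF differs from that of plasma. By CPM, 5 of the 7 members had a range in plasma wholly above that in CSF, which was also the case for 55.1% of all miRNAs tested (3.75% had a range wholly above in CSF). Those shares cover the 1146 miRNAs that passed the filter on low counts, whereas miR-19a-3p, among the 5, and miR-106b-5p missed it. The count of members therefore has to be read against a table in which most miRNAs were lower in CSF on this scale. In the fit across all miRNAs with TMM scaling, 5 of the 7 members passed the filter on low counts. Of these, miR-17-5p and miR-20a-5p were higher in CSF, and miR-93-5p and miR-18a-5p were lower, where 51.7% of all 1146 miRNAs tested passed in either direction, 26.2% higher and 25.6% lower.

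On the log2 scale and with TMM, miR-20a-5p was higher by 1.67 ± 0.37 (SE; edgeR quasi-likelihood test, Benjamini-Hochberg adjusted p = 0.00103) and miR-17-5p by 1.12 ± 0.36 (adjusted p = 0.0135) in CSF against plasma. Both directions flipped when libraries were scaled to their total counts, to -0.04 (adjusted p = 0.943) for miR-20a-5p and -0.62 (adjusted p = 0.243) for miR-17-5p, and with totals that leave out the muscle miRNAs the values were 0.85 (adjusted p = 0.0660) and 0.28 (adjusted p = 0.565). The call of miR-17-5p also rested on the DOCA-salt male libraries, with an adjusted p of 0.0509 without that of plasma and 0.0549 without that of CSF.

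miR-18a-5p fell by 2.76 on the log2 scale (-2.76 ± 0.51, adjusted p = 1.95e-04 by edgeR). It was lower in CSF under each of the 16 alternatives run, from -4.49 to -2.33, with an adjusted p of at most 0.00160. With 0 to 8 UMIs a library in CSF, it passed the filter on low counts through its plasma libraries, where it was high. The fit without a filter gave -2.75 (adjusted p = 1.87e-04 by edgeR). miR-93-5p had a log2 difference of -0.96 ± 0.39 with an adjusted p of 0.0478 by edgeR, and this call was lost in 12 of 16 alternatives, including each of the 8 with 1 library left out (adjusted p of 0.0516 to 0.161), while its sign held in all of them. miR-19b-3p had -0.65 ± 0.33 (adjusted p = 0.108), and it passed with total-count scaling (-2.32) and with totals without the muscle miRNAs (-1.46, adjusted p = 0.00499). miR-19a-3p and miR-106b-5p missed the filter, and the fit without one gave 0.14 (adjusted p = 0.850) and 0.40 (adjusted p = 0.598).

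Scaling moved the median log2 difference of all miRNAs from -0.12 with TMM to -1.70 with total counts and to -0.86 with totals without the muscle miRNAs. A scaling factor shifts all miRNAs of a library alike, so the order of the members could hardly change with it. miR-20a-5p stood highest, followed by miR-17-5p, miR-19b-3p, miR-93-5p and miR-18a-5p.

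**Figure D2:**
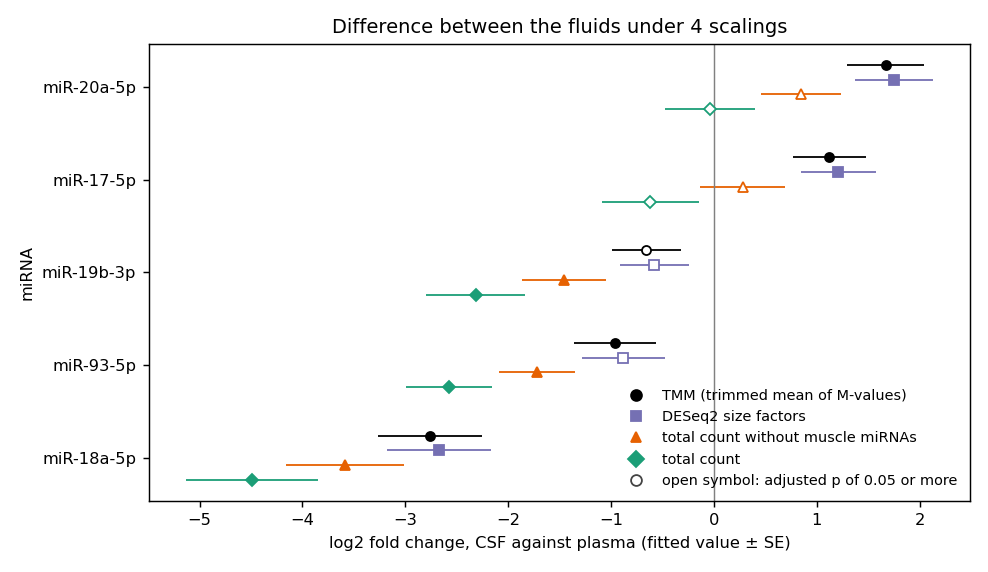
Fitted log2 difference of CSF against plasma for the 5 members that passed the count filter, with bars for the SE, under 4 ways of scaling the libraries. Open symbols mark an adjusted p at or above 0.05. miR-18a-5p stays below 0 and passes under all 4 scalings, whereas miR-20a-5p and miR-17-5p go from 1.67 and 1.12 with TMM to -0.04 and -0.62 with total counts.

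Among miRNAs of other cell types, the 5 erythrocyte miRNAs summed to 9.63% to 16.7% of UMIs in plasma and 1.80% to 4.84% in CSF. Most of that sum was miR-16-5p, which many cell types express (100670 ± 22387 CPM in plasma and 25083 ± 13278 in CSF; SD, n = 4). Erythroid miR-451a instead stood at 345 to 662 CPM in plasma and 509 to 1295 CPM in CSF, with overlapping ranges. The ranges of miR-144-3p, at 59.1 to 151 CPM in plasma and 58.9 to 131 CPM in CSF, also overlapped. By contrast, miR-144-5p and miR-486a-5p of the same list had CPM ranges wholly lower in CSF. Their means were 306 and 24910 CPM in plasma and 17.5 and 3852 CPM in CSF. The 5 leukocyte miRNAs summed to 2.13% to 3.08% in plasma and 0.201% to 0.393% in CSF. The 5 platelet miRNAs summed to 2.95% to 4.74% and 1.96% to 4.23%. Of the platelet list, miR-126a-3p and miR-24-3p had CPM ranges wholly lower in CSF. miR-223-3p, miR-151-3p and miR-199a-3p overlapped, and miR-199a-3p had the higher mean in CSF. None of the markers on these lists was at 0 in any library, and the quotient of erythroid miR-451a and miR-23a-3p, a pair used to check for haemolysis, was 0.127 to 0.226 in plasma and 0.0605 to 0.505 in CSF. The 5 neuronal miRNAs summed to 0.147% to 0.297% in plasma and 0.183% to 0.318% in CSF. Of these, miR-9-5p and miR-9-3p had CPM ranges wholly higher in CSF, and miR-138-5p had one wholly lower. miR-124-3p and miR-128-3p overlapped, with lower means in CSF. The pair of choroid plexus miRNAs summed to 0.0160% to 0.0218% and 0.0252% to 0.0364%, with miR-204-5p wholly higher in CSF and miR-211-5p wholly lower. The part of these lists in the differences of the members was not tested. A smaller number of exosomes from a cell type and less RNA in each cannot be told apart in such samples.

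Ratios of members within a library do not depend on how libraries are scaled. The ratio of miR-93-5p to miR-17-5p was 74.1, 90.9, 61.1 and 65.7 in plasma and 23.2, 19.6, 15.8 and 15.1 in CSF. The ratio of miR-19b-3p to miR-17-5p was 2.63, 3.21, 4.06 and 3.75 in plasma and 1.46, 1.13, 0.865 and 0.815 in CSF. Neither pair of ranges overlapped, and both ratios were lower in CSF in each of the 4 conditions of sex and treatment.

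The ratio of miR-18a-5p to miR-17-5p was 1.41, 2.95, 0.938 and 3.65 in plasma and 0.308, 0, 0.108 and 0.148 in CSF. The ratio of miR-20a-5p to miR-17-5p moved the other way, from 2.04, 2.16, 1.75 and 2.05 in plasma to 3.62, 2.38, 2.95 and 2.93 in CSF. The ranges of the fluids did not overlap for 4 of the 6 ratios to miR-17-5p, those of miR-93-5p, miR-19b-3p, miR-18a-5p and miR-20a-5p, as for 45.6% of all miRNAs tested in either direction. That share covers miRNAs that passed the filter on low counts, which miR-19a-3p and miR-106b-5p did not. Of all miRNAs tested, 39.4% had a ratio to miR-17-5p wholly lower in CSF and 6.20% one wholly higher, so miR-20a-5p was in the smaller group.

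On the log2 scale with 1 added to each count, the differences of CSF minus plasma were -1.98 for miR-93-5p, -1.66 for miR-19b-3p, -3.71 for miR-18a-5p and 0.55 for miR-20a-5p, each to miR-17-5p, and each had the smallest p that 4 against 4 libraries can give (two-sided exact permutation test, p = 0.0286). Adjusted over the 8 ratios tested, that p became 0.0571, so 0 of 8 ratios passed at 0.05 (4 of 8 at the unadjusted p). No smaller p was possible, so whether these 4 passed depended on how many of the other ratios also reached it. The ratio of miR-19a-3p to miR-17-5p differed by -0.91 (exact permutation p = 0.0571, adjusted 0.0653), with ranges that overlapped. miR-19b-3p to miR-19a-3p differed by -0.75 and miR-93-5p to miR-106b-5p by -1.49, with the same p. miR-106b-5p to miR-17-5p differed by -0.49 (exact permutation p = 0.514, adjusted 0.514), lower in CSF in 2 of 4 conditions, and rested on 3 to 15 UMIs of miR-106b-5p a library.

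**Figure D3:**
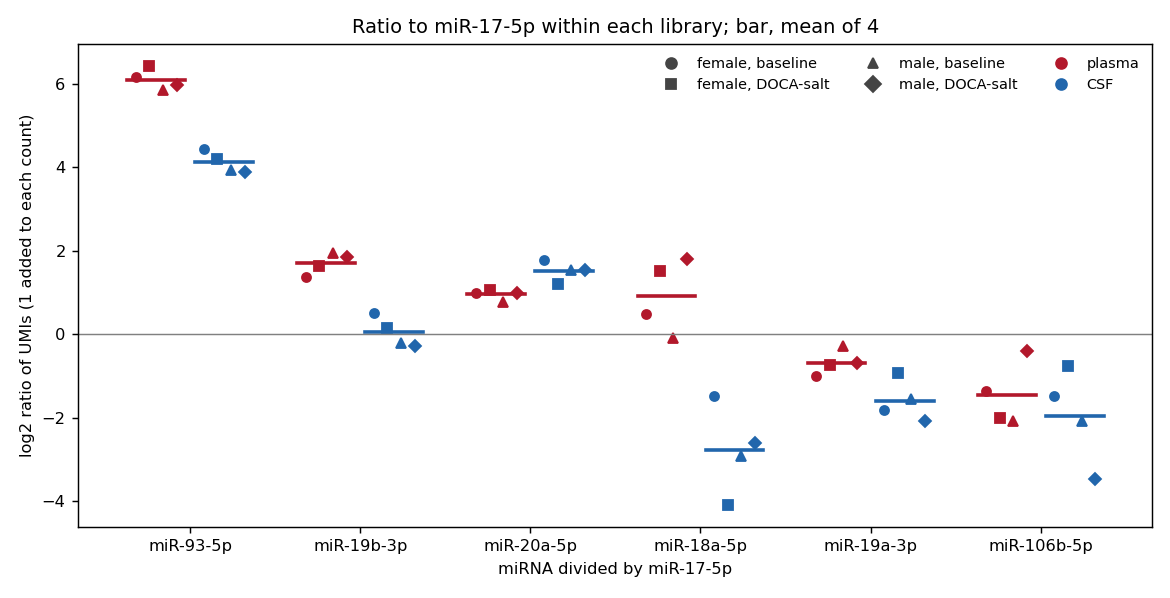
Log2 ratio of each member to miR-17-5p in each library, with 1 added to each count, plasma in red, CSF in blue, marker shape for sex and treatment and a bar for the mean of 4 libraries. The ratios of miR-93-5p, miR-19b-3p and miR-18a-5p are lower in all 4 CSF libraries than in any plasma library, that of miR-20a-5p is higher in all 4, and those of miR-19a-3p and miR-106b-5p overlap.

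The share of a strand among both strands of its hairpin is likewise free of library scaling. miR-17-5p made up 57.4%, 54.3%, 55.2% and 57.1% of both strands' UMIs in plasma and 86.7%, 72.7%, 90.2% and 90.0% in CSF. In plasma this rested on 29 to 47 UMIs a library and the 95% exact (Clopper-Pearson) intervals ran from 35.7% to 73.7%, whereas in CSF they ran from 49.8% to 98.3%. The shares did not overlap between the fluids, which was also the case for 39.0% of 539 hairpins, and no test was run on them.

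miR-20a-5p made up 68.8%, 85.4%, 66.7% and 67.2% of its hairpin's UMIs in plasma and 92.2%, 90.5%, 93.2% and 97.5% in CSF, again without overlap. The miR-93 hairpin went the opposite way, with a 5p share of 99.2%, 99.1%, 98.7% and 99.2% in plasma and 92.6%, 91.5%, 95.0% and 93.7% in CSF. Its minor strand, miR-93-3p, stood at 57.2, 44.5, 82.0 and 36.1 CPM in plasma and 101, 95.5, 41.2 and 50.8 CPM in CSF. With TMM, miR-93-3p was higher in CSF by 1.96 ± 0.35 on the log2 scale (adjusted p = 1.36e-04 by edgeR), against 0.38 (adjusted p = 0.510) with total-count scaling. miR-17-3p was lower by -1.15 ± 0.42 (adjusted p = 0.0274 by edgeR), a call lost in 8 of 16 alternatives.

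miR-106b-5p was the minor strand of its hairpin in every library, at 15.2%, 7.84%, 10.0% and 27.3% in plasma and 11.1%, 10.1%, 4.21% and 1.04% in CSF. The major strand miR-106b-3p, which has another seed, stood at 200.1, 139, 170.3 and 131 CPM in plasma and 135, 263, 242 and 353 CPM in CSF. It was higher in CSF with TMM by 2.46 ± 0.47 on the log2 scale (adjusted p = 2.52e-04 by edgeR), and by 0.64 (adjusted p = 0.203) with total counts. The CSF ranges of the 5p share overlapped those of plasma. miR-18a-5p held 62.5% to 86.4% of its hairpin's UMIs in plasma, and CSF held only 3 to 11 UMIs of that hairpin a library, too few to compare.

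**Figure D4:**
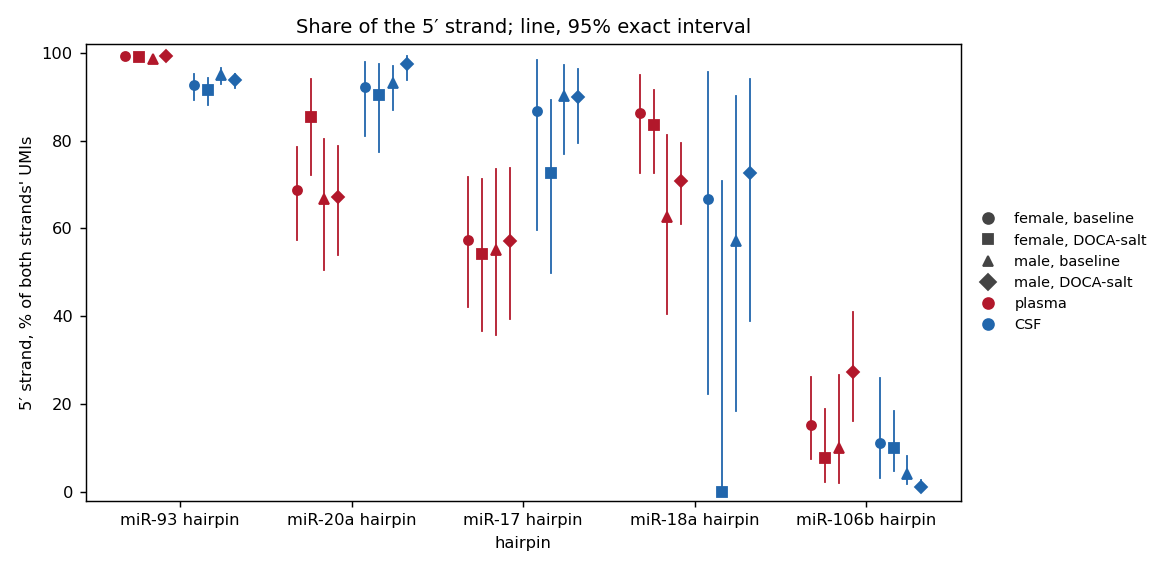
Share of the 5p strand among both strands' UMIs for 5 hairpins, in percent, for each library, with plasma in red, CSF in blue, marker shape for sex and treatment and lines for 95% exact intervals. The miR-17 and miR-20a hairpins have higher 5p shares in all CSF libraries than in any plasma library, the miR-93 hairpin has lower ones, and the 5p strand of miR-106b is the minor one throughout.

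The other major strands of both clusters showed no difference that passed with TMM. miR-92a-3p, the last miRNA of the chromosome 14 cluster, had a log2 difference of -0.61 ± 0.40 (adjusted p = 0.224 by edgeR) and miR-25-3p, the third miRNA of the Mcm7 cluster, had -0.01 ± 0.43 (adjusted p = 0.985). Their CPM in plasma, 2838 to 4963 and 3974 to 6475, was lower in CSF, at 543 to 1311 and 1315 to 1649. With total-count scaling both were called lower, at -2.19 and -1.72. miR-20b-5p, miR-18b-5p, miR-106a-5p and miR-363-3p of the X chromosome cluster, along with miR-6383, which shares the AAAGUGC seed, missed the filter on low counts.

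The second comparison asked what DOCA-salt changed within a fluid. In plasma, 0 of 7 members passed (edgeR, adjusted p under 0.05), where 1.07% of 1398 miRNAs did, with 192 miRNAs at an unadjusted p under 0.05. miR-18a-5p had the lowest p among the members, with a log2 difference of 0.94 ± 0.46 (unadjusted p = 0.0459, adjusted p = 0.352 by edgeR). Its CPM went from 136 to 166 in females, a ratio of 1.22 (95% exact interval 0.796 to 1.90), and from 94.6 to 239.6 in males, a ratio of 2.53 (1.44 to 4.75). It was the sole member with a higher CPM in both DOCA-salt libraries of plasma, as 20.2% of miRNAs tested had.

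miR-17-5p, miR-20a-5p, miR-19a-3p, miR-19b-3p and miR-93-5p had a lower CPM in both DOCA-salt libraries of plasma, as 41.3% of miRNAs had. miR-93-5p, the best counted, gave ratios of 0.716 (0.671 to 0.764) in females and 0.699 (0.643 to 0.760) in males. In the fit with TMM its log2 difference was -0.34 ± 0.38 (adjusted p = 0.745 by edgeR), and the values of miR-17-5p, miR-20a-5p, miR-19a-3p and miR-19b-3p lay between -0.62 and -0.38, with adjusted p of 0.634 to 0.745. miR-106b-5p went from 10 to 4 UMIs in females and from 3 to 15 in males, so the sexes moved in opposite directions at these low counts.

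The ratio of miR-18a-5p to miR-17-5p in plasma was 1.41 at baseline and 2.95 with DOCA-salt in females, and 0.938 and 3.65 in males. miR-18a-3p, the other strand of its hairpin, went from 6 to 11 UMIs in females and from 9 to 30 in males, with CPM ratios of 1.52 (0.516 to 5.01) and 1.73 (0.803 to 4.15), and did not pass either (log2 difference 0.86 ± 0.53, adjusted p = 0.511 by edgeR). With 2 libraries a state, no permutation test of these ratios was run.

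In the plasma libraries the erythrocyte sum fell from 16.7% to 12.6% of UMIs in the female pair and from 11.7% to 9.63% in the male pair, and the leukocyte sum from 3.08% to 2.13% and from 2.84% to 2.18%, beside the lower CPM of the 5 members. The platelet sum rose from 2.95% to 4.74% in the female pair and fell from 4.55% to 3.86% in the male pair. Within the erythrocyte list, miR-486a-5p went from 36668 to 25842 CPM in females and from 15539 to 21592 CPM in males. The part of these lists was not tested.

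In CSF, 4 members passed the filter and 0 of 4 were called between DOCA-salt and baseline, where 0.193% of 1036 miRNAs were (89 at an unadjusted p under 0.05). miR-17-5p had a log2 difference of 0.07 ± 0.50 (adjusted p = 0.987), miR-93-5p of -0.09 ± 0.48 (adjusted p = 0.982), miR-19b-3p of -0.15 ± 0.50 (adjusted p = 0.958) and miR-20a-5p of -0.23 ± 0.53 (adjusted p = 0.932, all by edgeR). The 95% interval for miR-17-5p ran from -0.91 to 1.05, so changes of up to about a doubling in either direction lay within it. Passing the adjusted threshold would take more, as the sex term of miR-17-5p in the same fit, at 1.02 ± 0.51, did not pass (adjusted p = 0.263 by edgeR). The CPM ratio of miR-93-5p was 0.817 (0.696 to 0.960) in females and 0.975 (0.876 to 1.09) in males.

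The effect of DOCA-salt did not pass as different between the fluids for any of the 7 members (edgeR interaction, adjusted p of 0.729 to 0.988), nor for any of 1465 miRNAs (0%, with 113 at an unadjusted p under 0.05). The largest such value among members was that of miR-18a-5p, at -1.57 ± 1.03.

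**Figure D5:**
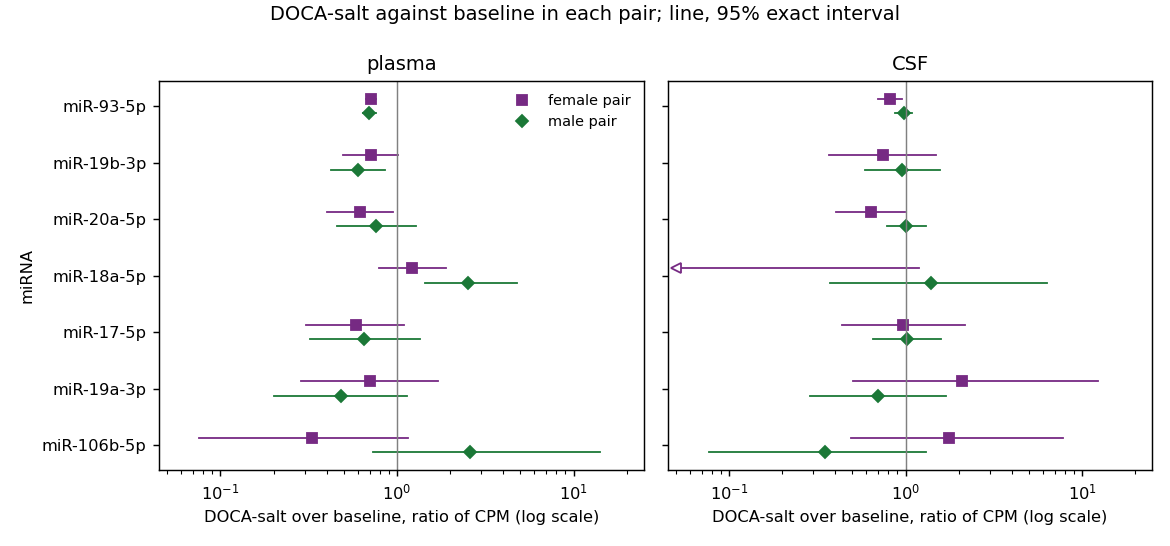
CPM with DOCA-salt divided by CPM at baseline for each member, on a log axis, for the female pair (squares) and the male pair (diamonds) of each fluid, with lines for 95% exact conditional intervals that cover counting error only. In plasma miR-93-5p lies at 0.716 and 0.699 and miR-18a-5p at 1.22 and 2.53, and in CSF most lines cross 1. The open triangle marks a ratio of 0.

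Between the sexes, 0 of 7 members passed in plasma, where 0.143% of 1398 miRNAs did (103 at an unadjusted p under 0.05), and 0 of 4 in CSF, where 5.21% of 1036 did. In CSF the log2 differences of male against female with TMM were 1.02 ± 0.51 for miR-17-5p (adjusted p = 0.263), 1.02 ± 0.53 for miR-20a-5p (adjusted p = 0.308), 0.55 ± 0.48 for miR-93-5p (adjusted p = 0.661) and 0.41 ± 0.50 for miR-19b-3p (adjusted p = 0.769, all by edgeR). All 4 flipped with total-count scaling, to -0.11, -0.11, -0.58 and -0.72, and the muscle miRNAs made up 36.3% and 38.7% of the female CSF libraries and 49.1% and 56.6% of the male ones.

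The sex effect did not pass as different between the fluids for any member (edgeR interaction, adjusted p of 0.404 to 0.950), where 0.819% of 1465 miRNAs passed. The value for miR-20a-5p was 1.39 ± 0.65 (unadjusted p = 0.0391) with TMM. These values depended on scaling: the median of the 7 members was 1.16 with TMM, -0.35 with total counts and 0.06 with totals without the muscle miRNAs, beside -0.02, -1.51 and -1.11 for all miRNAs. Of the other strands, miR-106b-3p was higher in male than in female CSF by 1.76 ± 0.53 on the log2 scale (adjusted p = 0.0288 by edgeR), with CPM ratios of 1.80 (lower bound of the interval 1.23) at baseline and 1.34 with DOCA-salt. That call was lost in 13 of 16 alternatives, including total-count scaling (0.63, adjusted p = 0.270) and each of the 8 that left out a library. Those 8 used the joint fit of both fluids, so they differ from the main fit in model as well as in libraries.

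Across the 8 libraries, profiles of log2 CPM with TMM, each centred on its own mean, were compared by their mean absolute difference, over the 5 members that passed the filter on low counts. The closest pairs of members were miR-93-5p with miR-19b-3p (0.28) and miR-17-5p with miR-20a-5p (0.29), and miR-20a-5p and miR-18a-5p were the farthest (2.23). Of 730 miRNAs with a mean of at least 20 UMIs, those nearest to the mean profile of these 5 were miR-3547-3p (0.20), miR-30c-5p (0.21), miR-6991-3p (0.23), miR-744-5p (0.25) and let-7a-5p (0.26). miR-19b-3p itself was at 0.27, miR-93-5p was at 0.34, and miR-17-5p (0.69), miR-20a-5p (0.98) and miR-18a-5p (1.25) were farther from that mean.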

How the data were processed

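Exosomal RNA was extracted with a miRNeasy Micro kit and made into QIAseq miRNA libraries with molecular identifiers, per the labels' protocols. Reads were trimmed with Cutadapt 2.7, and Bowtie 1.3.0, edgeR and the builds mm10 and GRCm38 are named, per the submitters' processing notes and the labels. The deposited UMI and read columns hold raw counts per mature miRNA, with 1977 rows in plasma and 1961 in CSF, and the deposited CPM columns hold the authors' UMI counts scaled to 1000000 a library (CPM), which were recomputed to within a relative difference of 4.7e-10 for the members. How the authors assigned reads that fit several miRNAs is not given in the sources used here.

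The members and all lists were chosen with earlier results of these data known. Low counts were removed by filterByExpr, libraries were scaled by TMM, and UMI counts were tested with edgeR 4.0.16 (quasi-likelihood, R 4.3.3, limma 3.58.1), with Benjamini-Hochberg adjustment over all miRNAs tested and a threshold of 0.05; the code was tested on simulated data. CSF against plasma was a fit of fluid alone, leaving 6 degrees of freedom. DOCA-salt and sex were terms of 1 fit per fluid (leaving 1, so that the estimate of spread came mostly from the whole table), and differences of effects between fluids came from a joint fit (leaving 2). Ratios within libraries used an exact permutation test with scipy 1.17.1. Intervals are 95%. Those of levels, shares and CPM ratios are exact and cover counting error only, and that of a fitted log2 difference was built from its SE in edgeR. Alternatives were other scalings, DESeq2 1.42.0, no filter, read counts, other models and each library left out. For DOCA-salt and sex within a fluid, a library was left out of the joint fit rather than the fit per fluid. Named besides the members were their other strands, the other major strands of their clusters and the X chromosome cluster, sharers of a seed, and the 5 most similar profiles with a mean of at least 20 UMIs. All 7 members matched a RefSeq mature sequence, as did 1675 table rows; host genes came from GENCODE on mm10.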

Additional observations from a re-analysis of the deposited data

How the results depend on the processing

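Under the 16 alternatives of CSF against plasma, the number of members called mostly stayed within 1.5 times of the main 4. Leaving out a library gave 2 to 3 calls, with 2 only without the DOCA-salt male library of plasma or that of CSF. The members called changed with scaling. Both total-count scalings, with and without the muscle miRNAs, called 0 members higher and 3 lower in CSF, against 2 higher and 2 lower in the main fit. For the within-fluid and interaction comparisons, 0 members were called under every alternative run (the DESeq2 Wald test gave an adjusted p for only 4 members with DOCA-salt in CSF, 2 for sex in CSF and 1 in the sex interaction).

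The whole-table counts beside which the members were read were less stable. For DOCA-salt and sex within a fluid, the counts without 1 library came from the joint fit of both fluids. They therefore differ from the main counts in model as well. For DOCA-salt in plasma the 15 calls became 29 with DESeq2 size factors and with no filter, 1 with the DESeq2 Wald test, and 0 with total-count scaling, read counts, the joint fit and only the term tested (0 to 12 without 1 library). For DOCA-salt in CSF the 2 calls became 4 with no filter and 0 with the other scalings, the Wald test, read counts, the joint fit and only the term tested (0 to 5). For sex in plasma the 2 calls became 5 with DESeq2 size factors, 9 with totals without muscle miRNAs, 10 with no filter and 0 with total counts, the Wald test, read counts and both other models (0 to 3). For sex in CSF the 54 calls became 328 with total counts, 0 with totals without muscle miRNAs and with only the term tested, 25 with the Wald test, 34 with no filter, 5 with read counts and 30 in the joint fit (0 to 34, with 33 or 34 where a plasma library was left out). For the DOCA-salt interaction the 0 calls became 2 with DESeq2 size factors and with total counts, 1 with totals without muscle miRNAs and with the Wald test, and 3 with no filter (0 to 3). For the sex interaction the 12 calls became 21 with DESeq2 size factors and the Wald test, 319 with total counts, 55 with totals without muscle miRNAs, 27 with no filter and 0 with read counts (0 to 9). The fluid comparison made 531 to 587 calls without 1 library, against 593. With 5 added to each count in place of 1, 5 of the 8 ratios passed. The 4 ratios with the smallest possible p were joined by miR-19b-3p to miR-19a-3p. All 5 then shared an adjusted p of 0.0457 (exact permutation test), which depends on how many ratios reach that smallest p. The cause of the shifts in the whole-table counts was not tested.

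Signs turned for values that were not called, apart from miR-17-5p (-0.62) and miR-20a-5p (-0.0368) in CSF against plasma with total counts. Within a fluid, fitted values without 1 library again came from the joint fit. In that comparison miR-25-3p turned to 0.0737 with DESeq2 size factors and 0.0739 with the Wald test, and ranged from -0.24 to 0.25 without 1 library. miR-106b-5p with DOCA-salt in plasma turned to -0.12 and -0.11 with both total-count scalings (-1.20 to 1.59 without 1 library). With DOCA-salt in CSF, miR-17-5p turned to -0.00842 and -0.17 with both total-count scalings and miR-19b-3p to 0.00210 with read counts; without 1 library miR-20a-5p ranged from -0.49 to 0.15, miR-93-5p from -0.12 to 0.10 and miR-19b-3p from -0.26 to 0.0728, its sign turning without either female CSF library (0.0728 and 0.0688). For sex in CSF, total counts turned miR-17-5p (-0.11), miR-20a-5p (-0.11), miR-93-5p (-0.58) and miR-19b-3p (-0.72), and totals without muscle miRNAs turned miR-93-5p (-0.17) and miR-19b-3p (-0.31). The ratio of miR-106b-5p to miR-17-5p ranged from -0.88 to 0.0139 without 1 library.

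No replicate numbers pair the libraries. A block per sex-and-treatment condition kept miR-17-5p (1.13), miR-20a-5p (1.66) and miR-18a-5p (-2.69) past the threshold, and miR-93-5p (-0.89, adjusted p = 0.150 by edgeR) was not. A sign-flip permutation over the 4 conditions cannot give a p below 0.125, so it could not pass for any ratio. Low counts limit all members but miR-93-5p and miR-20a-5p: each of the others had under 20 UMIs in at least 1 library, among them miR-17-5p (13 to 54 UMIs), the denominator of 6 of the 8 ratios.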

Other observations

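miR-106a-5p, the X chromosome copy that differs from miR-17-5p only by U10A, was counted at 8 and 11 UMIs in the baseline female and male plasma libraries and at 1 and 0 UMIs in the DOCA-salt ones. The CPM ratio of the female pair was 0.104 (95% exact interval 0.00234 to 0.774), and the interval of the male pair ended at 0.207. It missed the filter on low counts, and the edgeR fit without one gave an adjusted p of 0.0232 for DOCA-salt against baseline in plasma. miR-17-5p itself had CPM ratios of 0.584 (0.307 to 1.09) and 0.651 (0.320 to 1.34) in the same pairs.

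miR-106b-3p had a higher CPM with DOCA-salt in both pairs of CSF, with ratios of 1.96 (1.28 to 3.05) in females and 1.46 (1.22 to 1.75) in males, and a lower one in both pairs of plasma, at 0.696 (0.462 to 1.05) and 0.771 (0.462 to 1.31). In the fit the CSF difference was 0.82 ± 0.52 (adjusted p = 0.665 by edgeR) and the difference between the fluids was 1.04 ± 0.64 (adjusted p = 0.716). The muscle miRNAs fell from 38.7% to 36.3% of UMIs in the female CSF pair and from 56.6% to 49.1% in the male one. Such a fall raises the CPM of the other miRNAs. How many of all miRNAs had a higher CPM in both CSF pairs was not counted.

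miR-20a-3p, the minor strand of its hairpin, went from 25 to 7 UMIs in the female plasma pair, a CPM ratio of 0.232 (0.0849 to 0.553), and from 14 to 20 UMIs in the male pair, a ratio of 0.743 (0.357 to 1.59), beside log2 -1.03 ± 0.48 in the fit (adjusted p = 0.337 by edgeR).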
